A study of Mus musculus with 8 samples.

Results

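Keratins are the intermediate filament proteins of epithelial cells. The genes described here are the protein-coding rows of the deposited count table whose symbol is Krt followed by a number and at most 1 letter, without the 4 stress keratins Krt6a, Krt6b, Krt16 and Krt17. This gave 49 genes of the 56748 in the table. They were sorted by the tissue layer in which each is known, into 3 basal epidermal, 7 suprabasal epidermal, 5 simple epithelial, 10 other soft epithelial, 1 companion layer, 7 inner root sheath and 15 hair keratins, with Krt88 left unclassified.

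RNA came from whole skin of 8 male mice aged 35 weeks, 1 library per mouse. In the 3 NPY-tet mice both copies of Npy, the gene of neuropeptide Y, carried the tet allele (genotype NPY tet/tet, strain B6;129S4-Npytm2Rpa/J). The 5 wild-type mice were their siblings with the genotype NPY +/+. No treatment was given to either group, and the labels name neither the skin site nor the cells in which the allele acts. The series title poses the question of how excess neuropeptide Y relates to inflammation and fibrosis of skin.

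A keratin filament is built from pairs of 1 acidic (type I) and 1 basic (type II) chain, so epithelial cells make both. Basal epidermal cells use Krt5 with Krt14, and cells leaving the basal layer switch to Krt1 with Krt10. In hair follicles the inner root sheath, which moulds the growing shaft, makes its own keratins, and the shaft is made of cysteine-rich hair keratins. Follicles pass through phases of growth and rest, and both of these sets are made in growing follicles. In the mm39 build the 25 type I members on chromosome 11 lay between 99123587 and 100160697, and the 23 type II members on chromosome 15 lay between 101245325 and 101912917. The type I gene Krt18 lay beside the type II genes, at 101936615 to 101940462.

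Promoters of 6 members are shown because the inner root sheath and hair keratins varied together from mouse to mouse, whereas Krt5, a basal epidermal gene, varied little, and Krt32 kept a measurable level in every mouse. Each runs from 250 bases before to 50 bases after the gene start, on the minus strand in the GRCm38.p6 build of RefSeq, and not in the mm39 build of the counts. Capitals mark TATAAA, the core of the TATA box, and the core word of Lef1 and related factors (CTTTGAA or CTTTGAT, and also CTTTGTA or CTTTGTT), on either strand. The windows are chr15:101743048-101743347 for Krt71, chr11:99322902-99323201 for Krt25, chr11:100050502-100050801 for Krt31, chr11:100029819-100030118 for Krt33b, chr11:100088220-100088519 for Krt32 and chr15:101712856-101713155 for Krt5.
Krt71: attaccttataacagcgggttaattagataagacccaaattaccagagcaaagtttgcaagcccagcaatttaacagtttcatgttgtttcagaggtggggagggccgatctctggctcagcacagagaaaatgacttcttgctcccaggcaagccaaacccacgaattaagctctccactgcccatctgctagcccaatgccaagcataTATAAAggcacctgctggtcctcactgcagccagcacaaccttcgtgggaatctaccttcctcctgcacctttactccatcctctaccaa
Krt25: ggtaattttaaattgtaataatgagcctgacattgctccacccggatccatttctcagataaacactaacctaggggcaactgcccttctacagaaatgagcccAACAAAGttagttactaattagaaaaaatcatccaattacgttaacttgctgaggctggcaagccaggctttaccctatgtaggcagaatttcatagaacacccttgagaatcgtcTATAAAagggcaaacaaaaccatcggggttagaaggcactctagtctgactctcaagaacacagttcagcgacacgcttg
Krt31: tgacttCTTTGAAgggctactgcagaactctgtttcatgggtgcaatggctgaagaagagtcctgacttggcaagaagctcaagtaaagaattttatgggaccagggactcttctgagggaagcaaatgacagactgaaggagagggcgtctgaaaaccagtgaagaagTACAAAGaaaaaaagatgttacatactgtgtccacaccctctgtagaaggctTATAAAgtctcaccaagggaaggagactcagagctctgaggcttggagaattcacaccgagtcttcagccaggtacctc
Krt33b: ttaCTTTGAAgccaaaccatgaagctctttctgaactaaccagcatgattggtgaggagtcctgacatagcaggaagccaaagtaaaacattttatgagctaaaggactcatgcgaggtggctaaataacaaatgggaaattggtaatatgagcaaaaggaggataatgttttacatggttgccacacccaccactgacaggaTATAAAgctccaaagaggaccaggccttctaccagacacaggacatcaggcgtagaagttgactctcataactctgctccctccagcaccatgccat
Krt32: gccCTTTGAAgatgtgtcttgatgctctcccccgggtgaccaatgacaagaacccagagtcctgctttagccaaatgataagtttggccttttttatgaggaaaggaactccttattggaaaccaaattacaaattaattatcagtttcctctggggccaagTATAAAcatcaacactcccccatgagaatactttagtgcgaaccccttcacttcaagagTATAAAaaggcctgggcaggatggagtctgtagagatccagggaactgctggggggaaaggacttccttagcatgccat
Krt5: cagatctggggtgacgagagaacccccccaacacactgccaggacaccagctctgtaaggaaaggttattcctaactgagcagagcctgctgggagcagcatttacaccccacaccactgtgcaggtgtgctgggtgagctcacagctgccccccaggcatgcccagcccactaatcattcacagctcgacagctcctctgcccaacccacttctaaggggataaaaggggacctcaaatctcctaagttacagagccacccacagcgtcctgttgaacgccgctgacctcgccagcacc

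Of the 49 members 36 had a promoter in the RefSeq table. Those of Krt14 and Krt7 were left out because they start 1518 and 1360 bases inside the gene as GENCODE M21 annotates it, and the other 34 lie within 200 bases of its 5′ end. All 7 inner root sheath promoters and 6 of 9 hair keratin promoters held TATAAA on 1 strand or the other, as did 1 of 5 suprabasal promoters and not that of Krt5, the 1 basal promoter. Of the remaining members, Krt20, Krt8, Krt12, Krt42 and Krt76 held it. Krt18, Krt24, Krt23, Krt13, Krt9, Krt90 and Krt75 did not. Over all 34 keratin promoters it stood in 19 (55.9%). Among all 32851 promoters of the table, the share was 13.6%. A Lef1 word stood in 2 of 7 inner root sheath and 5 of 9 hair keratin promoters. The share was 29.4% over the 34 keratin promoters and 16.9% over all promoters. In the windows shown no word overlapped another, and the Krt5 window held none. These matches describe letters only.

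Counts per library totalled 31370433 to 47495565. Npy itself, which checks the labels, had 10394 to 11864 counts in NPY-tet libraries and 5 to 15 counts in wild-type libraries. Ribosomal RNA took 6.44% to 8.07% of the counts in NPY-tet replicate 1 and wild-type replicates 1, 2, 3 and 5. It took 0.0388% to 0.0754% in NPY-tet replicates 2 and 3 and wild-type replicate 4, a split the labels do not give. Levels of a gene across mice are given as CPM (counts scaled to a common library size with TMM factors) and levels between genes as FPKM, the deposited values per kilobase of gene length. Log2 fold changes put NPY-tet over wild-type. They and their standard errors (SE) come from the quasi-likelihood test of edgeR with Benjamini-Hochberg adjustment over all genes tested. Of the 49 members 44 passed the filter on low counts.

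No keratin gene passed the test for a difference between the genotypes. Of the 44 tested members, 0 were higher and 0 lower at an adjusted p under 0.05, where 0.00541% of all 18495 tested genes passed, that is, Npy alone. At an unadjusted p under 0.05 there were 0 of 44 members, against 5.98% of all tested genes. DESeq2 gave a p for 40 of the 44 members and called 0 of them, against 0.369% of all genes. Of these 40 Krt4 alone had an unadjusted p under 0.05 (7.49% of all genes), and Krt32, Krt72, Krt84 and Krt90 got none. The smallest adjusted p of a member was 0.795. In 0 of 44 members did the groups separate without overlap in CPM, as they did in 3.78% of all tested genes. The fitted log2 fold changes ran from -0.75 to 1.26 with 28 above and 16 below 0 and a median of 0.21, beside a median of 0.0041 over all tested genes.

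The members differed instead in how much they varied between mice of the same genotype. Basal and suprabasal epidermal keratins differed by 1.42-fold to 3.17-fold between the highest and the lowest of the 8 libraries. The 22 inner root sheath and hair keratins differed by 7.39-fold to 11692-fold, with libraries under 3 counts set to 3 counts. Some scarce members of other classes also exceeded the low end of that range. With the same floor Krt18 differed by 33.5-fold, Krt90 by 21.7-fold, Krt42 by 17.7-fold and Krt8 by 12.7-fold. The coefficient of biological variation fitted by edgeR had a median of 0.253 for suprabasal and 0.248 for basal keratins, 2.12 for inner root sheath and 1.98 for hair keratins, and 0.242 over all tested genes. Among the 5 wild-type mice, 25 of the 18495 tested genes had a standard deviation of log2 CPM above 4. Of those 15 were inner root sheath or hair keratins.

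**Figure D1:**
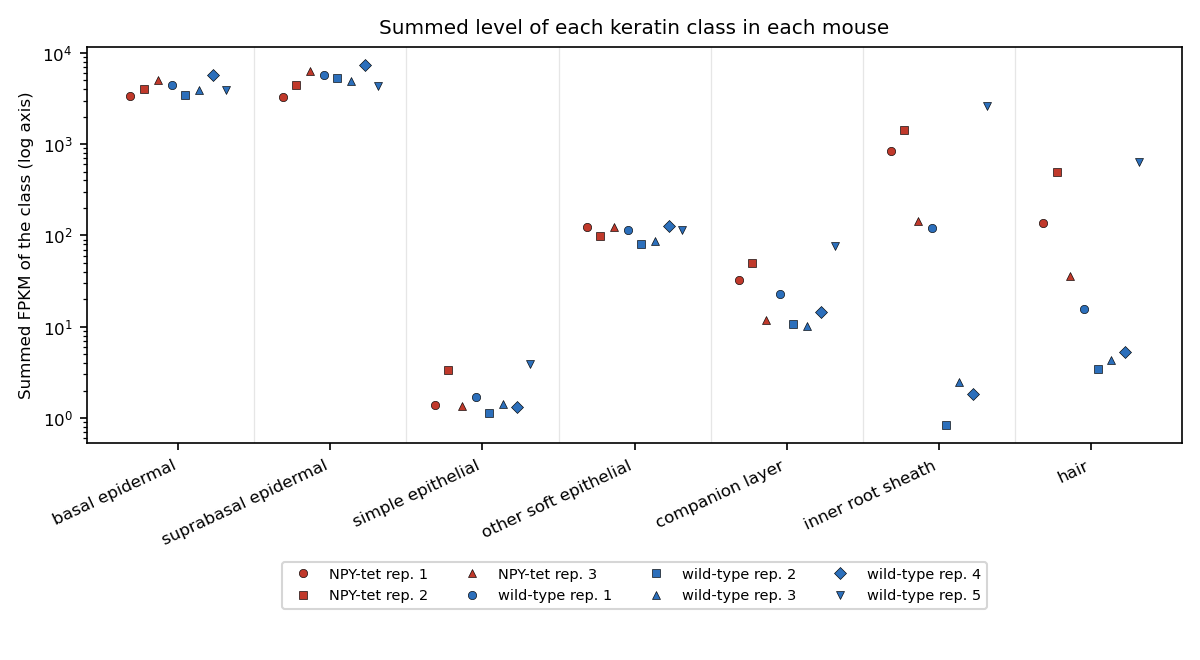
Summed FPKM of each keratin class (log axis) in each mouse, with NPY-tet mice in red left of wild-type mice in blue and 1 symbol per mouse. Basal and suprabasal sums lie close together in all mice, whereas the inner root sheath sum runs from 0.829 in wild-type replicate 2 to 2611 in wild-type replicate 5.

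Inner root sheath keratins were abundant in some mice of either genotype and near the limit of detection in others. Krt71, a type II keratin that is mutated in some curly-coated mice (chromosome 15, 101642384 to 101651544), had 691, 1317 and 134 CPM in NPY-tet replicates 1 to 3, and 112, 0.253, 1.54, 0.980 and 2088 CPM in wild-type replicates 1 to 5. Krt25, a type I keratin of the same sheath (chromosome 11, 99206342 to 99213777), had 377, 725 and 78.5 CPM in NPY-tet replicates 1 to 3, and 52.0, 0.152, 1.11, 0.540 and 1026 CPM in wild-type replicates 1 to 5. Wild-type replicate 5 was the highest library for both genes and wild-type replicates 2, 3 and 4 were the lowest, so that the NPY-tet mice lay inside the wild-type range. In whole skin, fewer cells of a type and less RNA per cell cannot be told apart.

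The third abundant member, Krt27, a type I chain of the sheath, had 297, 425 and 37.4 CPM in NPY-tet mice, and 42.3, 0.0506, 0.503, 0.200 and 888 CPM in wild-type mice, in replicate order. NPY-tet replicates 1 and 2 were again below only wild-type replicate 5. The log2 fold change was 0.70 (SE 2.59; adjusted p = 0.965) for Krt71, 0.87 (SE 2.5; adjusted p = 0.953) for Krt25 and 0.44 (SE 2.61; adjusted p = 0.981) for Krt27. With an SE near 2.5 on the log2 scale, changes of many fold in either direction lie within the error.

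The other 4 sheath genes had the same 3 highest mice at lower levels. Krt72, Krt73 and Krt26, which in human follicles mark the cuticle of the sheath, reached 435, 293 and 171 CPM in wild-type replicate 5. In wild-type replicate 2 Krt73 and Krt26 had 0 counts and Krt72 had 3. Krt28, a further type I chain, ranged from 11.9 to 115 CPM in NPY-tet mice and from 0.603 to 299 CPM in wild-type mice. Krt28 thus fell less far than Krt25 or Krt27 in the libraries with low sheath keratins, to 0.603 CPM at the least.

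Hair keratins followed with lower levels and a similar order of mice. Krt83, a type II cortex keratin in human hair, had 26.2, 132 and 5.71 CPM in NPY-tet replicates 1 to 3, and 2.35, 0.0760, 0.235, 0.220 and 170 CPM in wild-type replicates 1 to 5. Krt35, a type I keratin that in human hair starts in the matrix below the cortex, had 58.3, 144 and 26.5 CPM in NPY-tet mice, and 8.50, 0.0506, 0.201, 0.540 and 178 CPM in wild-type mice. Krt31, a type I cortex keratin in human hair, had 27.4, 88.2 and 4.64 CPM in NPY-tet mice, and 2.60, 0.152, 0.335, 0.0800 and 130 CPM in wild-type mice. For each of the 3 genes the NPY-tet values lay within the wild-type range, whose ends were wild-type replicate 5 and a library with 2 to 4 counts.

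Krt33b, a second type I cortex keratin, was the only sheath or hair member whose highest library was not wild-type replicate 5. It had 15.4, 94.4 and 5.74 CPM in NPY-tet mice, and 1.30, 0, 0.0670, 0.10 and 83.3 CPM in wild-type mice. Its neighbour Krt33a, with 31.3, 115 and 4.61 CPM in NPY-tet mice, reached 149 CPM in wild-type replicate 5. The ratio of Krt33b to Krt33a in FPKM was 0.642, 1.08 and 1.62 in NPY-tet replicates 1 to 3 and 0.730 in wild-type replicate 5, the libraries with at least 100 counts of both. The log2 fold changes of Krt83, Krt35, Krt31 and Krt33b were 0.67 (SE 2.41), 1.03 (SE 2.19), 0.60 (SE 2.32) and 1.19 (SE 2.33), with adjusted p of 0.932 to 0.966.

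Krt32, a type I keratin of the hair cuticle in humans, behaved unlike the other abundant hair keratins. It had 18.8, 19.9 and 7.35 CPM in NPY-tet mice, and 5.11, 4.73, 4.86, 7.18 and 35.0 CPM in wild-type mice, so that no mouse fell below 4.73 CPM. Its log2 fold change was 0.44 (SE 0.84; adjusted p = 0.929), the smallest SE among the hair keratins. Krt36 likewise kept 0.456 to 0.820 CPM in the wild-type mice other than replicate 5, in which it had 14.0 CPM, and had 1.82 to 10.6 CPM in NPY-tet mice. Krt39, Krt40 and Krt84 were the least abundant hair members in mean FPKM, at most 1.25 FPKM. Krt84, which in humans is known from the tongue, was at 4.07, 3.82 and 0.202 CPM in NPY-tet mice and reached 17.5 CPM in wild-type replicate 5.

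Hair keratins arose by duplication, and some counts may be shared between neighbours. In GENCODE M21 transcripts, 29.0% of the 100-base windows of Krt81, 24.6% of Krt86, 17.5% of Krt34, 14.0% of Krt31, 12.4% of Krt33a and 11% of Krt87 occurred in another gene as well. The share was 4.05% for Krt33b and 5.43% for Krt83, under 1% for Krt25, Krt27 and Krt35, and 0 for the remaining sheath genes. How the authors' counting treated reads from such windows is not given in the sources used here. Single values of Krt31, Krt33a, Krt33b, Krt34, Krt81, Krt83, Krt86 and Krt87 are therefore uncertain. Krt32, Krt82 and Krt84 had 0% of their windows in another gene. The libraries do not mark strand, and reads of the antisense transcript over Krt32, to which 67 counts were assigned in all libraries together, cannot be told apart from those of Krt32. The same holds for the antisense transcripts over Krt10, Krt80, Krt7, Krt8 and Krt12.

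**Figure D2:**
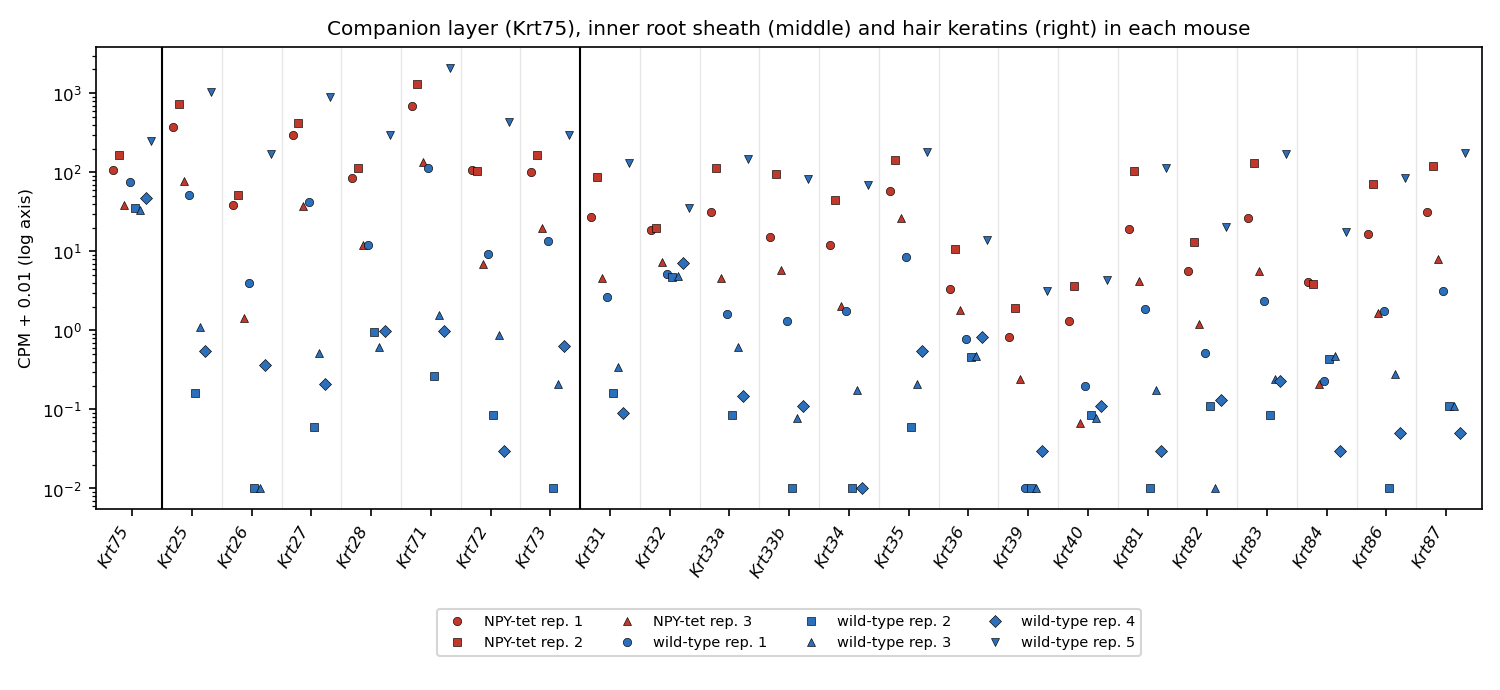
CPM plus 0.01 (log axis) of the companion layer keratin Krt75, the 7 inner root sheath and the 15 hair keratins in each mouse, with NPY-tet mice in red left of wild-type mice in blue. NPY-tet replicates 1 and 2, with wild-type replicate 5, give the 3 highest points for all 22 sheath and hair genes, and points at 0.01 have 0 counts.

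The order of mice was shared across these genes. In 22 of 22 sheath and hair members the 3 highest libraries were NPY-tet replicates 1 and 2 and wild-type replicate 5, and in 17 of 22 the next ones were NPY-tet replicate 3 and wild-type replicate 1. Wild-type replicate 5 was the highest in 21 of 22. These genes share their libraries and, in part, their reads, so they are not independent of one another. As a share of all keratin counts, sheath and hair members made up 10.9%, 15.8% and 1.31% in NPY-tet replicates 1 to 3, and 1.08%, 0.0358%, 0.0599%, 0.0412% and 24.0% in wild-type replicates 1 to 5. The 95% Wilson interval was 0.0320% to 0.0401% in wild-type replicate 2 and 23.9% to 24.1% in wild-type replicate 5, and covers counting error only.

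The 3 highest mice differed in the balance between sheath and shaft. The summed FPKM of sheath over hair keratins was 6.23, 2.92 and 3.96 in NPY-tet replicates 1 to 3, against 7.70 in wild-type replicate 1 and 4.11 in wild-type replicate 5. It was 0.568 and 0.350 in wild-type replicates 3 and 4, where most hair keratin counts were those of Krt32. Within the sheath, Krt72 over Krt71 was 0.168, 0.0878 and 0.0573 in NPY-tet mice, against 0.0911 in wild-type replicate 1 and 0.228 in wild-type replicate 5. Krt25 over Krt71 was steadier, at 0.601, 0.605 and 0.645 in NPY-tet mice, and 0.511 and 0.540 in wild-type replicates 1 and 5. With 1 library per mouse and 2 wild-type values, these differences were not tested.

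The fold changes of both sets rested on wild-type replicate 5. With all mice the median log2 fold change was 0.44 for sheath and 0.69 for hair keratins. Without wild-type replicate 5 it was 4.76 and 5.75, with 17 of 41 members at an unadjusted p under 0.05, against 9.11% of all genes in that fit, and 0 past the adjusted threshold (smallest adjusted p = 0.251, Krt36). Without NPY-tet replicate 2 the medians were -0.17 and -0.74. Within the libraries rich in ribosomal RNA, where the only NPY-tet mouse is replicate 1, the medians were 0.34 and -0.26. Within the libraries poor in it, where the only wild-type mouse is replicate 4, they were 9.51 and 8.25, and 3 hair keratins passed (Krt84, Krt39 and Krt36; smallest adjusted p = 0.00342), where 1.17% of the genes tested in that fit passed. Both of these fits take the spread of the lone mouse to be that of the other group.

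**Figure D3:**
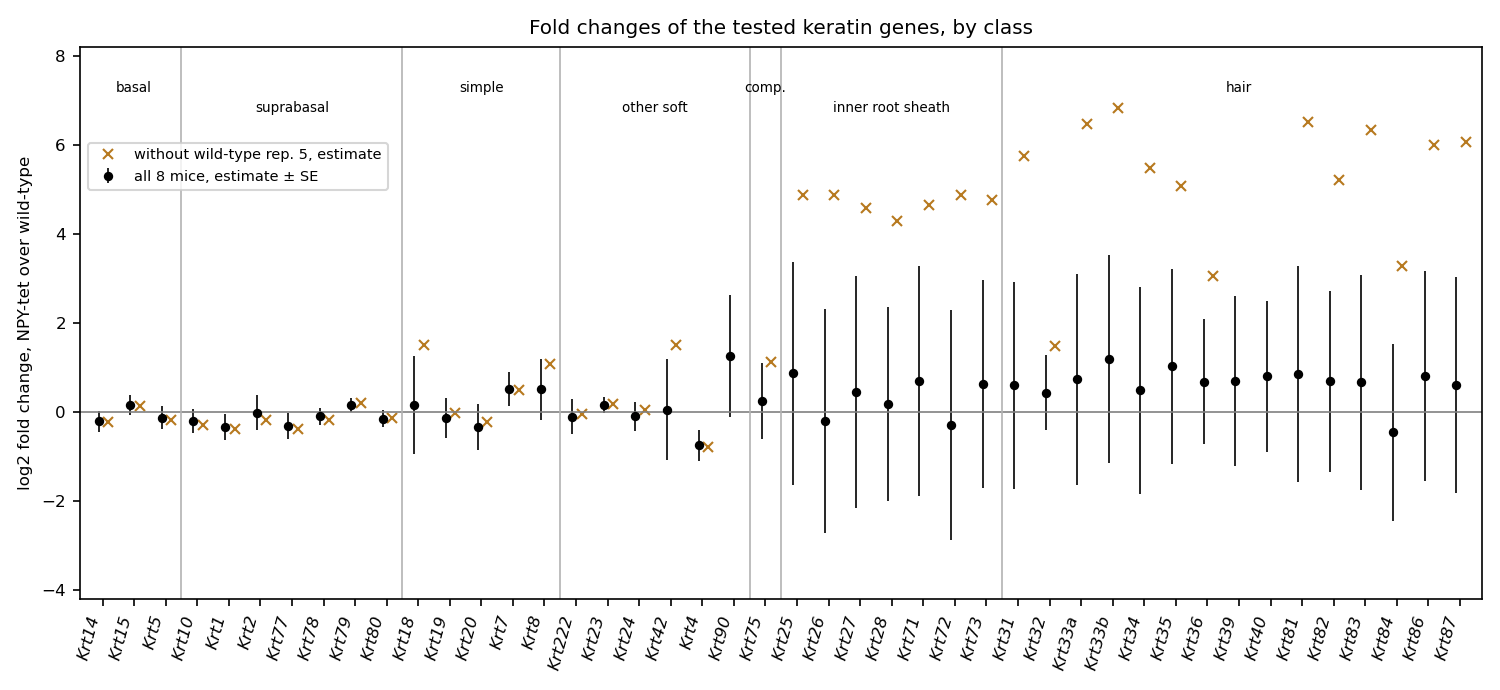
Log2 fold change of NPY-tet over wild-type for the 44 tested keratin genes, by class, as the estimate with all mice ± SE (black) and the estimate without wild-type replicate 5 (crosses, absent for Krt39, Krt40 and Krt90, which then fell under the count filter). Sheath and hair estimates lie near 0 with wide errors in the first and mostly between 3 and 7 in the second, and epidermal estimates stay near 0 in both.

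Most listed genes that are not keratins but belong to the same follicle program were highest in 1 of the same 3 mice. In a list of 29 genes of hair follicle differentiation, 27 were tested, 0 passed in either direction, 23 had a positive and 4 a negative log2 fold change, and the median was 0.41. The highest library was wild-type replicate 5 for 17 of them, NPY-tet replicate 2 for 7 and NPY-tet replicate 1 for 1. The share of all tested genes that are highest in these libraries was not computed. The tally also takes no account of how far each listed gene varied between mice. The 3 with the smallest p were the forkhead factor Foxq1, at 34.9 ± 3.82 CPM in NPY-tet mice and 27.1 ± 5.43 CPM in wild-type mice (SD, n = 3 and 5), the hedgehog ligand Shh, at 1.91 ± 1.98 and 0.548 ± 0.603 CPM in the same groups, and the repressor Prdm1, at 25.9 ± 7.09 and 18.5 ± 7.48 CPM (adjusted p of the 3 genes at least 0.795). Trichohyalin, Tchh, which binds keratin filaments in the sheath and was picked after its values were seen, had 664, 1236 and 79.6 CPM in NPY-tet mice, and 81.9, 4.00, 5.43, 5.82 and 1671 CPM in wild-type mice. Gata3 and Selenbp1 of the same list, also picked after their values were seen, did not follow this order. Gata3 had 137, 161 and 132 CPM in NPY-tet mice, and 130, 132, 130, 157 and 106 CPM in wild-type mice. Selenbp1 had 62.1, 81.1 and 96.9 CPM in NPY-tet mice, and 81.9, 82.8, 113, 95.8 and 76.1 CPM in wild-type mice. Of the proliferation genes 0 of 18 passed, and 16 of 18 were highest in NPY-tet replicate 2. The share of all tested genes highest in that library was not computed. The summed level of the proliferation genes was 64.9 to 193 CPM in NPY-tet mice and 92.6 to 167 CPM in wild-type mice. Their part in the keratin levels was not tested.

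Krt75, the type II keratin of the companion layer between the sheath and the outer root sheath, varied about as much as Krt32. The highest and lowest libraries differed by 7.51-fold for Krt75, 7.39-fold for Krt32 and at most 3.17-fold for basal and suprabasal keratins. Krt75 had 108, 166 and 39.1 CPM in NPY-tet mice, and 75.3, 35.0, 33.3, 47.3 and 250 CPM in wild-type mice. The same 3 mice were highest, but no mouse fell below 33.3 CPM. The log2 fold change was 0.24 (SE 0.85; adjusted p = 0.962), or 1.13 without wild-type replicate 5.

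Basal epidermal keratins were among the most abundant members, and none passed the test. Krt5, the type II chain of the basal pair, had 2608, 3869 and 4829 CPM in NPY-tet replicates 1 to 3, and 4690, 3278, 3669, 5391 and 3527 CPM in wild-type replicates 1 to 5. Its partner Krt14 had 1266, 1948 and 2429 CPM in NPY-tet mice, and 2173, 1672, 2118, 2790 and 2140 CPM in wild-type mice. Krt15, a type I chain of basal cells and of the stem cells of the follicle bulge, had 2591, 2195 and 2602 CPM in NPY-tet mice, and 2141, 1820, 1953, 3125 and 2025 CPM in wild-type mice. The groups overlapped for all 3 genes, with wild-type replicate 4 the highest mouse in each.

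The log2 fold change was -0.13 (SE 0.26; adjusted p = 0.935) for Krt5, -0.21 (SE 0.24; adjusted p = 0.871) for Krt14 and 0.15 (SE 0.22; adjusted p = 0.897) for Krt15. NPY-tet replicate 1 was the lowest of the 8 mice in Krt5 and Krt14 but not in Krt15. Its ratio of Krt15 to Krt14 in FPKM was 2.04, against 1.12 and 1.07 in NPY-tet replicates 2 and 3 and 0.917 to 1.11 in wild-type mice. Krt14 over Krt5 was steadier, at 0.622 ± 0.0128 in NPY-tet mice and 0.669 ± 0.0713 in wild-type mice (SD, n = 3 and 5).

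Suprabasal keratins were led by Krt10 and Krt77. Krt10, the type I chain of the spinous layer, had the highest mean of all members at 2478 FPKM, followed by Krt77 at 2101 FPKM, and Krt1 stood lower at 363 FPKM. Krt10 had 3420, 4825 and 6317 CPM in NPY-tet mice, and 5514, 5614, 5141, 7354 and 4223 CPM in wild-type mice. Krt77, a type II keratin related to Krt1, had 3832, 4814 and 7643 CPM in NPY-tet mice, and 7308, 6372, 5523, 9164 and 5198 CPM in wild-type mice. Both genes were lowest in NPY-tet replicate 1 and highest in wild-type replicate 4.

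Krt1, the classic type II partner of Krt10, had 691, 1477 and 2012 CPM in NPY-tet mice, and 1845, 1533, 1721, 2190 and 1490 CPM in wild-type mice. NPY-tet replicate 1 had less than any other mouse, NPY-tet replicate 2 lay just below the wild-type range and NPY-tet replicate 3 inside it. The log2 fold change was -0.33 (SE 0.30; adjusted p = 0.838) for Krt1, -0.31 (SE 0.29; adjusted p = 0.845) for Krt77 and -0.20 (SE 0.26; adjusted p = 0.889) for Krt10. Without NPY-tet replicate 1 these were -0.003, -0.10 and 0.01. In the libraries rich in ribosomal RNA, where that mouse is the only NPY-tet one, Krt1 was at -1.23 (adjusted p = 0.0501), in a fit that called 1.66% of its genes. Without NPY-tet replicate 3, Krt1 was at -0.69 (unadjusted p = 0.0412 in edgeR, against 13.7% of all genes under 0.05; adjusted p = 0.345).

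In NPY-tet replicate 1 the FPKM of Krt1 relative to Krt5 was 0.132, against 0.190 and 0.207 in NPY-tet replicates 2 and 3 and 0.196 to 0.233 in wild-type mice. The same mouse had the lowest summed skeletal muscle markers (12 genes, 11 tested, 0 passed, median log2 fold change -0.51), 29979 CPM, against 43665 and 48149 CPM in NPY-tet replicates 2 and 3 and 31841 to 78158 CPM in wild-type mice. It also had the lowest proliferation sum given above. Their part in the Krt1 value was not tested.

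**Figure D4:**
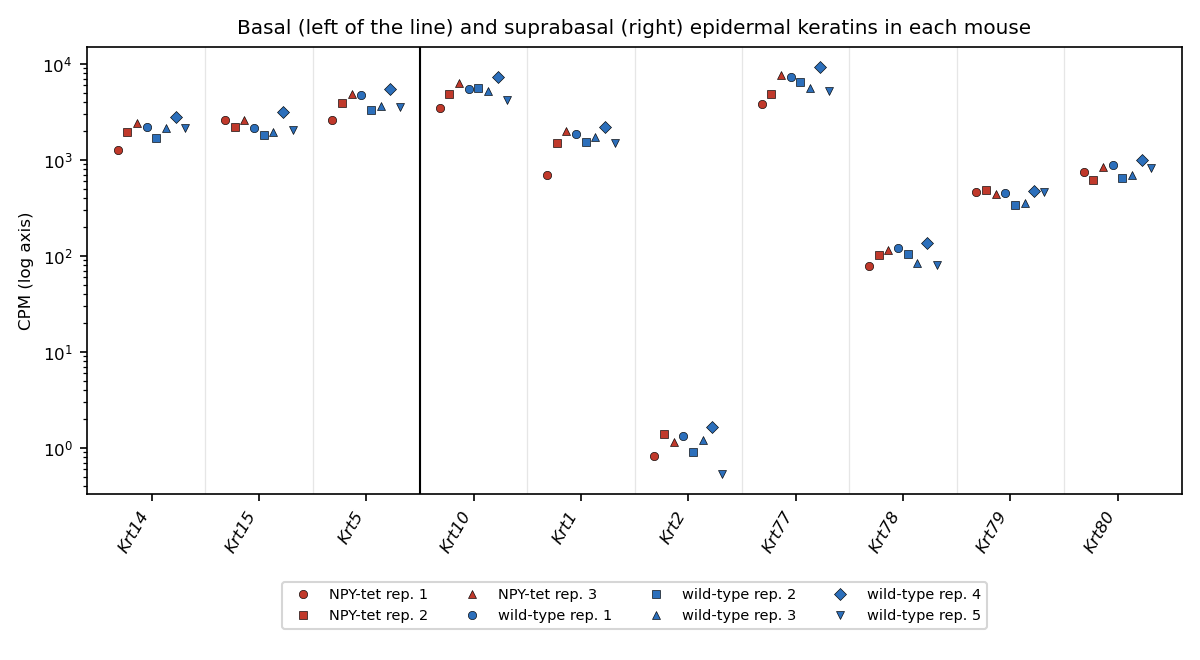
CPM (log axis) of the 3 basal and 7 suprabasal epidermal keratins in each mouse, with NPY-tet mice in red left of wild-type mice in blue. NPY-tet replicate 1 is the lowest point for Krt14, Krt5, Krt10, Krt1, Krt77 and Krt78, and the groups overlap for every gene.

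The remaining suprabasal members were lower and even. Krt80, a type II keratin of many epithelia, averaged 733 ± 118 CPM in NPY-tet mice and 811 ± 142 CPM in wild-type mice. Krt79, made in the upper follicle and the duct of the sebaceous gland, averaged 465 ± 20.2 and 414 ± 63.1 CPM, and Krt78 averaged 98.1 ± 18.3 and 104 ± 23.9 CPM in the same groups (SD, n = 3 and 5). Krt2, which in mice is a keratin of ear, tail and sole epidermis, had 0.535 to 1.64 CPM in the 8 libraries. Krt9, the keratin of palm and sole, had at most 7 counts in a library.

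Epidermal genes outside the keratin family did not pass either. Of 25 genes of epidermal differentiation 0 passed, and the median was 0.13. At an unadjusted p under 0.05 there were 3 of 25, against 5.98% of all tested genes, all 3 toward higher levels in NPY-tet mice. These were the filaggrin relative Hrnr, at 57.7 ± 12.5 CPM in NPY-tet mice and 35.0 ± 5.43 CPM in wild-type mice, filaggrin itself (Flg), at 47.6 ± 2.69 and 34.6 ± 6.83 CPM, and the barrier lipoxygenase Aloxe3, at 55.1 ± 15.2 and 31.4 ± 9.93 CPM in the same groups (SD, n = 3 and 5). Sebaceous gland genes, of which 0 of 9 passed, held 4 with an unadjusted p under 0.05, against 5.98% of all tested genes. All 4 were higher in NPY-tet mice (smallest adjusted p = 0.346, median of the list 0.59). Scd1, the most abundant of the 9, went the other way, at 2504 ± 1008 CPM in NPY-tet and 4023 ± 1015 CPM in wild-type mice. The summed level of the list was 1929 to 3792 CPM in NPY-tet mice and 2868 to 5515 CPM in wild-type mice. Of the 22 genes that anchor keratins to desmosomes and hemidesmosomes 21 were tested and 0 passed (median 0.05). The desmosomal plaque gene Pkp2 had the smallest p, at 15.1 ± 5.24 CPM in NPY-tet mice and 23.2 ± 5.37 CPM in wild-type mice (SD, n = 3 and 5; adjusted p = 0.795).

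Type I and type II levels were compared per class, since the chains pair. In the inner root sheath the summed FPKM of type I over type II members was 1.07, 0.989 and 0.967 in NPY-tet replicates 1 to 3, and 0.999 and 1.01 in wild-type replicates 1 and 5, the mice with at least 100 counts of each type. The ratio stayed near 1 while the summed sheath level of these mice ran from 121 to 2611 FPKM. With the member of highest mean FPKM of each type left out, Krt25 and Krt71, the mean ratio over these mice was 2.69. In the suprabasal class the ratio was 0.962 ± 0.0687 in NPY-tet mice and 0.902 ± 0.0730 in wild-type mice, and in the basal class 1.49 ± 0.304 and 1.34 ± 0.120 in the same groups (SD, n = 3 and 5). NPY-tet replicate 1 had the highest basal ratio, 1.84.

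**Figure D5:**
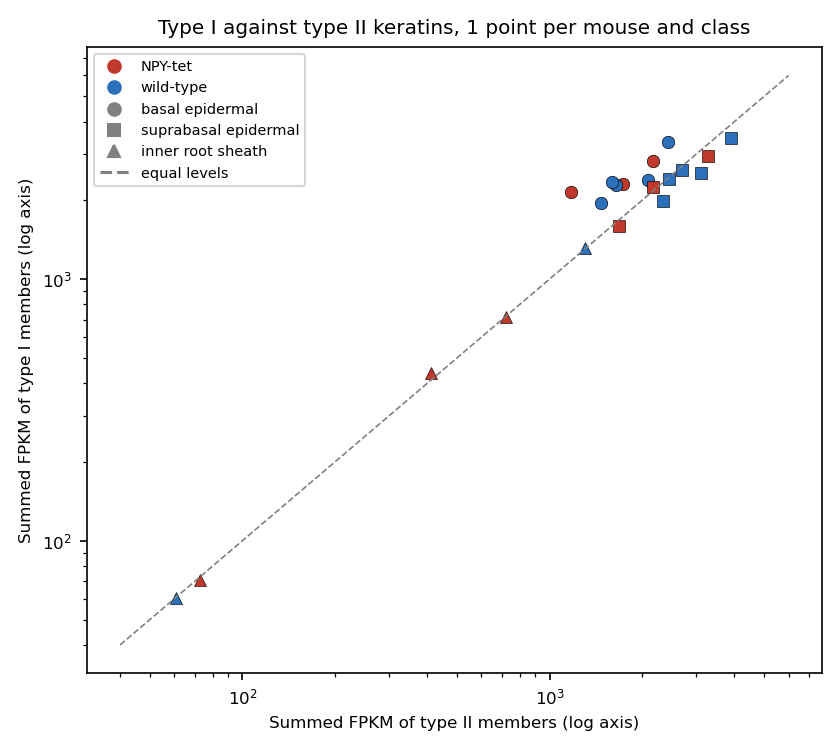
Summed FPKM of type I (vertical, log axis) against type II members (horizontal, log axis) for 3 keratin classes, 1 point per mouse and class with at least 100 counts of each type, which leaves out the sheath of wild-type replicates 2, 3 and 4, NPY-tet in red and wild-type in blue, with a dashed line of equal levels. The 5 sheath points plotted lie on or close to the line, suprabasal points lie close to it and basal points lie above it.

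Keratins of simple epithelia were scarce. Krt8 and Krt18, the pair of glands and of Merkel cells, had 0.644, 1.71 and 0.634 CPM and 0.309, 1.90 and 0.260 CPM in NPY-tet replicates 1 to 3. In wild-type replicates 1 to 5 Krt8 had 0.317, 0.405, 0.134, 0.960 and 1.67 CPM and Krt18 had 0.603, 0.0760, 0.402, 0.120 and 2.54 CPM. Both were highest in NPY-tet replicate 2 and wild-type replicate 5, in either order. Krt19, a type I chain of glandular epithelia, had 0.592, 1.33 and 0.952 CPM in NPY-tet mice, and 1.71, 0.734, 0.939, 0.520 and 1.37 CPM in wild-type mice. Krt7, a type II chain of the same epithelia, had 1.67, 2.20 and 0.836 CPM in NPY-tet mice, and 1.01, 1.42, 0.670, 1.34 and 1.04 CPM in wild-type mice. The groups overlapped for both. Krt20 stayed under 1 CPM in every mouse. The adjusted p of the 5 genes ran from 0.813 to 0.984. A Krt8 pseudogene holds 16.9% of the 100-base windows of Krt8, so its reads may be shared. Markers of sweat glands and Merkel cells were low throughout, with 6 of 8 tested and summed levels of 12.3 to 14.4 CPM in NPY-tet mice and 11.5 to 17.0 CPM in wild-type mice.

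Among the other soft epithelial members Krt23 was the most abundant. It had 187, 141 and 186 CPM in NPY-tet mice, and 171, 122, 125, 187 and 162 CPM in wild-type mice, with a log2 fold change of 0.16 (SE 0.17; adjusted p = 0.862). Krt24 had 5.87, 14.3 and 8.82 CPM in NPY-tet mice, and 11.5, 5.57, 10.1, 10.5 and 14.0 CPM in wild-type mice, so that the 2 groups spanned nearly the same range. Krt4, a keratin of oral and oesophageal lining, had the smallest p of all members and did not pass. It had 0.979, 1.17 and 1.12 CPM in NPY-tet mice, and 1.71, 1.04, 2.41, 2.40 and 1.61 CPM in wild-type mice, with a log2 fold change of -0.75 (SE 0.35; adjusted p = 0.795). The groups overlapped through wild-type replicate 2.

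The rest lay at the edge of detection. Krt222 had 0.489 to 1.11 CPM. Krt42 and Krt90 had at most 1.77 and 1.30 CPM, both in wild-type replicate 5, and 0 counts in at least 1 wild-type library. Markers of mammary and other glandular epithelium, with 5 of 10 tested and 0 passed, included the milk protein genes Csn2 and Wap at 0 counts. The corneal keratin Krt12, the mucosal keratin Krt13, the palate keratin Krt76, Krt9 and Krt88 did not pass the filter on low counts, with at most 17 counts in a library.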

How the data were processed

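Whole skin RNA of 8 mice was sequenced as poly-T selected, non-directional libraries, per the labels. The authors deposited whole-number counts per gene and FPKM values for the same 56748 genes. Per the submitters' processing notes, the build was mm39 and the tools included featureCounts 1.5.0-p3, HISAT2 2.0.5, CASAVA and DESeq2 1.20.0, with no role given. Groups came from the titles. From sample 3 to sample 8 the mouse number in the title and in the library name differ by 1, though both name 1 genotype.

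Counts were tested with edgeR 4.0.16 in R 4.3.3, with filterByExpr (18495 genes kept), TMM factors and a robust quasi-likelihood F-test, two-sided, adjusted by Benjamini-Hochberg over all genes tested. Alternatives were other size factors and filters, DESeq2 1.42.0, limma 3.58.1 on voom or log2(FPKM + 1 or 0.1), the replicate number as a block, ribosomal RNA sets and each library left out. The procedure was tested on simulated data in which each gene was drawn independently. Those data lack the variation that sheath and hair keratins share between mice, so that test does not bear on it. Counting error is set by 31370433 to 47495565 counts per library, and ratios need at least 100 counts. Values per library were given, in each class, for the 3 members of highest mean FPKM and the 2 of smallest p, and of the other lists up to 3 genes of smallest p were named. The members, classes and 9 gene lists, including the 4 stress keratins (0 passed; median log2 fold change 0.29), were chosen with earlier results of these data known. Tchh, Gata3, Selenbp1, Scd1 and the values per library of Krt33a and Krt84 lie outside the rule and were chosen after their values were seen.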

Additional observations from a re-analysis of the deposited data

Results flagged for a closer look

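In 27 of the 44 tested keratin genes 1 wild-type mouse stood apart from the other 4 by Dixon's criterion at 95%. The criterion was applied within the group of 5 to CPM without logs. Its chance rate of about 1 of 20 groups holds for normally distributed values and may not hold here. The share of all tested genes that meet it was not computed. The 27 keratin genes share their libraries and are not independent. The NPY-tet group of 3 mice was not examined in this way. In 26 of the 27 the mouse was wild-type replicate 5.

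Wild-type replicate 5 was highest among wild-type mice in all 7 inner root sheath keratins, with 1026 CPM of Krt25, 171 CPM of Krt26, 888 CPM of Krt27, 299 CPM of Krt28, 2088 CPM of Krt71, 435 CPM of Krt72 and 293 CPM of Krt73. Among type I hair keratins it had 129.8 CPM of Krt31, 35.0 CPM of Krt32, 149 CPM of Krt33a, 83.3 CPM of Krt33b, 68.4 CPM of Krt34, 178 CPM of Krt35, 14.0 CPM of Krt36, 3.11 CPM of Krt39 and 4.38 CPM of Krt40. Among type II hair keratins it had 115 CPM of Krt81, 20.2 CPM of Krt82, 169.6 CPM of Krt83, 17.5 CPM of Krt84, 84.6 CPM of Krt86 and 174 CPM of Krt87. All 15 hair keratins therefore met the criterion in this mouse. It also stood apart in the companion layer keratin Krt75 (249.9 CPM), the simple epithelial keratin Krt18 (2.54 CPM) and the scarce members Krt42 (1.77 CPM) and Krt90 (1.30 CPM).

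Krt15 stood apart in wild-type replicate 4, at 3125 CPM, the highest of the 8 mice. No cause of these departures was tested.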

How the results depend on the processing

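Of 461 fold changes of named keratin genes under the alternatives 433 kept their sign and 28 reversed, and 0 members passed under every alternative except the libraries poor in ribosomal RNA taken alone, with 3. Leaving out single libraries moved the median log2 fold change to between -0.17 and 4.76 for inner root sheath and between -0.74 and 5.75 for hair keratins, with the low ends without NPY-tet replicate 2 and the high ends without wild-type replicate 5. Summed levels of NPY-tet over wild-type mice then ran from 0.909 to 25.5 for sheath and from 0.664 to 31.6 for hair keratins. The cause of these shifts was not tested.

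Single libraries left out gave ranges of -0.34 to 0.087 for Krt5, -0.43 to 0.012 for Krt14, -0.43 to 0.0067 for Krt10, -0.44 to 0.12 for Krt19, -1.37 to 1.496 for Krt18, -0.13 to 1.09 for Krt8, -0.49 to 0.17 for Krt24, -0.27 to 1.13 for Krt75, -0.11 to 4.64 for Krt71, -0.17 to 4.57 for Krt27, -1.13 to 6.33 for Krt83, -0.74 to 5.75 for Krt31 and -0.69 to 6.83 for Krt33b. The class medians then ran from -0.34 to 0.09 for basal, -0.26 to 0.01 for suprabasal, -0.20 to 0.58 for simple, -0.16 to 0.13 for other soft and -0.27 to 1.13 for companion layer keratins, and the summed ratios from 0.851 to 1.05 for basal and 0.701 to 0.966 for suprabasal keratins.

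In libraries poor in ribosomal RNA alone the medians were 9.51 (sheath) and 8.25 (hair), the summed ratios 432 and 55.2, and the fold changes -0.39 for Krt15, 1.11 for Krt19, -0.21 for Krt23 and 0.13 for Krt24. In the rich libraries alone the basal median was -0.52, and the fold changes were -1.51 for Krt18, -0.70 for Krt83, -0.26 for Krt31 and -0.44 for Krt33b. With a covariate for the 2 ribosomal RNA sets the basal median was -0.43, 0 members passed, and the 4 with an unadjusted p under 0.05 (10.1% of all genes) all lay below 0, with Krt1 at -0.83, Krt77 at -0.62, Krt14 at -0.53 and Krt4 at -0.91. With limma-voom quality weights the medians were 6.95 (sheath) and 6.20 (hair), 0 members passed, 17 had an unadjusted p under 0.05 (12.1% of all genes), and Krt19 was at 0.12 and Krt24 at 0.22.

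Between mice of the same replicate number, 1 to 3, deviations from the group means correlated at -0.044, -0.105 and 0.298. Mice of unlike number were not compared in this way, so whether the numbers pair the mice was not tested. The replicate block, fitted on replicates 1 to 3 and so without wild-type replicates 4 and 5, gave medians of 5.84 (sheath) and 5.12 (hair), 0.055 for Krt24, 15 of 41 members at an unadjusted p under 0.05 (10.7% of all genes) and 0 passed. Without the highest member of each type the sheath balance was 2.69.

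In wild-type replicates 2 to 4 each sheath and hair keratin other than Krt32 had 0 to 49 counts, so ratios between these genes could not be had at this depth.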
